A study of Mus musculus with 9 samples.

Results

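Expression of the nuclear pore complex genes was examined in mouse LT-HSCs, the long-term stem cells of blood. A list of 31 nucleoporin genes was matched by symbol to a count table of 21939 genes, and 29 were found. The other 2, Nup42 and Nup58, stand in the table under their older symbols, Nupl2 and Nupl1, and are described on their own and kept out of all counts over the 29 genes. All cells came from bone marrow of C57BL/6 mice, were sorted by flow cytometry (Lin- Sca1+ cKit+ CD34- Flt3-), and were then held for 16 h at 37 °C, 3% O2 and 5% CO2 with 10% serum. Young cells came from mice aged 10 to 16 weeks and aged cells from mice older than 80 weeks. The group called aged+Ri held aged cells exposed at 100 µM for those 16 h to Rhosin, which blocks activation of RhoA, a small GTPase. Each group had 3 libraries, prepared by a full-length low-input method. The libraries are described as biological replicates, but the number of mice behind each is not given, so p-values measure the spread between these samples. No group of young cells received Rhosin, and the controls are not stated to have received a vehicle.

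The nuclear pore complex is the channel through which proteins and RNA pass between nucleus and cytoplasm. Its scaffold is an outer ring, built from copies of the Y-shaped Nup107 complex on both faces of the envelope, and an inner ring, which membrane nucleoporins anchor to the envelope. Nucleoporins rich in phenylalanine and glycine fill the central channel and form its barrier, filaments on the cytoplasmic face take part in the last steps of mRNA export, and a basket reaches into the nucleus. Scaffold proteins are very stable in cells that do not divide.

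Library totals lay between 34358101 and 72503142 counts, and the 29 genes took between 0.0958% and 0.158% of a library's counts. A level of 3 counts corresponded to between 0.041 and 0.0855 CPM, TMM-normalised counts scaled to library size. Between 20129 and 21213 genes had a count in the young libraries, and between 15024 and 17987 in the other 6. Transcripts of the Y-linked gene Ddx3y were found in young 2 (2577 counts) and young 3 (6400 counts), with at most 1 count in any other library. All 12 LT-HSC markers had counts in each group, with summed levels of 1671 to 2953 CPM in young, 1780 to 2346 in aged and 1215 to 2020 in aged+Ri. Summed over Cd34, Flt3 and Cd48, which are low in LT-HSCs, the level was 96.7 to 201 CPM in young, 82.1 to 129 in aged and 10.8 to 36.7 in aged+Ri. The summed level of 10 myeloid markers was 1053 to 3551 CPM in young, 449 to 10189 in aged, with aged 3 the highest, and 73.4 to 123 in aged+Ri. That of 8 erythroid markers was 46.8 to 764 CPM in young, 14.9 to 73.4 in aged and 722 to 1526 in aged+Ri. That of 7 B cell markers reached 13491 CPM in young 1 and stayed between 58.9 and 1119.8 elsewhere. In young 1 Iglc2 alone gave 13368 CPM of it, while Cd79a had 13.9 CPM there against 308 in young 3, and Ebf1 44.8 against 279. Of 7 mast cell and basophil markers the sum was 2.93 to 102 CPM in young, 23.1 to 274 in aged (Cma1 at 0) and 0 to 5.34 in aged+Ri (Prss34, Gzmb and Cma1 at 0). That of 10 T and NK cell markers was 132 to 522 CPM in young, 115 to 459 in aged and 17.3 to 392 in aged+Ri (Cd8a at 0). Ccl5 alone gave 385 CPM of it in aged+Ri 1 and 335 in aged+Ri 3. The next highest of these markers there, Il7r, had 3.76 and 25.6 CPM. The summed level of 6 megakaryocyte markers was 118 to 287 CPM in young, 248 to 542 in aged and 24.2 to 189 in aged+Ri (Gp9 at 0), and that of 10 cell cycle genes overlapped between all groups. The part of these cell types in the results on pore genes was not tested. In bulk libraries, fewer cells of a type and less RNA per cell cannot be told apart.

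All 29 genes passed the filter on low counts. Levels were compared between genes as CPM per kb of exon. Rae1, an mRNA export factor that binds Nup98, stood highest in young cells with a mean of 23.7 CPM per kb, against 31.0 in aged and 33.0 in aged+Ri. Seh1l and Sec13, the WD-repeat proteins of the outer ring, which both also serve in a complex on the lysosome, came next in young cells with 20.3 and 17.8 CPM per kb. Sec13, which also forms part of the COPII coat of secretory vesicles, was the highest of all in aged+Ri at 49.6 CPM per kb. The lowest member in every group was Pom121, a membrane nucleoporin, at 0.574 CPM per kb in young, 0.368 in aged and 0.726 in aged+Ri. Nup214 was the second lowest in young at 1.07 CPM per kb and stood at 3.55 in aged. The plot of all libraries shows each gene's CPM.

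**Figure D1:**
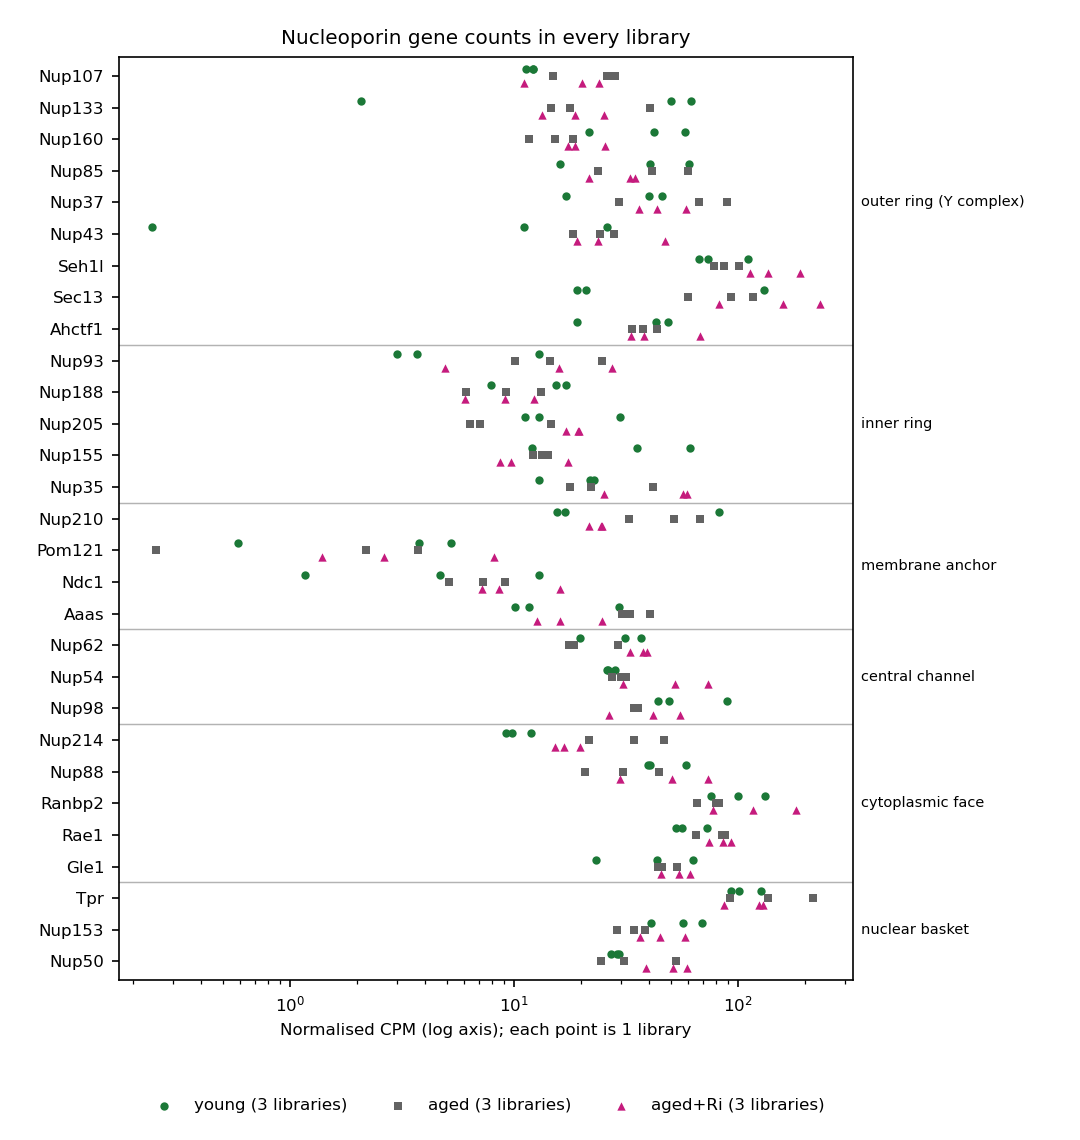
Normalised CPM (log axis) of the 29 nucleoporin genes, ordered by place in the pore, with 1 point per library for young, aged and aged+Ri. Rae1 varies least over the 9 libraries, while Nup43 in young 1 (0.243 CPM) and Nup133 in young 3 (2.08 CPM) stand far below the other libraries.

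Summed over the 29 genes, the level was 183, 202 and 215 CPM per kb in young 1, 2 and 3, 221, 237 and 252 in aged, and 354, 233 and 270.1 in aged+Ri. The 3 aged sums all stood above the 3 young ones, and aged+Ri 1 stood apart above every other library. High genes weigh most in such a sum. From young to aged, mean CPM per kb rose most for Sec13 (17.8 to 28.2), Nup37 (10.3 to 18.6), Rae1 (23.7 to 31.0) and Aaas (6.10 to 12.3). Log2 changes were negative for 11 of the 29 genes. In aged+Ri 1 Sec13 alone gave 72.8 CPM per kb. The outer ring alone made up 40.1% ± 4.67 of the sum in young cells (SD over 3 libraries), 43.7% ± 2.08 in aged cells and 45.8% ± 3.64 with Rhosin. The membrane anchors gave 22.7, 17.7 and 16.6 CPM per kb in aged against 11.3, 13.1 and 10.1 in aged+Ri, and these groups did not overlap. Aaas and Nup210 carried that difference, since the other 2 anchors had positive log2 changes from aged to aged+Ri, 0.98 for Pom121 and 0.56 for Ndc1, neither past the test. Young libraries spread over both, with 5.42, 9.07 and 20.3 CPM per kb. The central channel genes went the other way, with 21.1, 18.5 and 18.4 CPM per kb in aged against 38.0, 24.5 and 32.8 in aged+Ri. In aged+Ri 2 Nup62 alone carried this, at 13.2 CPM per kb against 6.15 to 10.2 in aged. There Nup54 lay within its aged range, at 9.18 against 8.25 to 9.52. Nup98 lay below its own, at 2.10 against 2.72 to 2.83. Nup58 is not part of this sum. The nuclear basket varied least between young libraries, at 23.5, 24.8 and 23.6 CPM per kb.

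**Figure D2:**
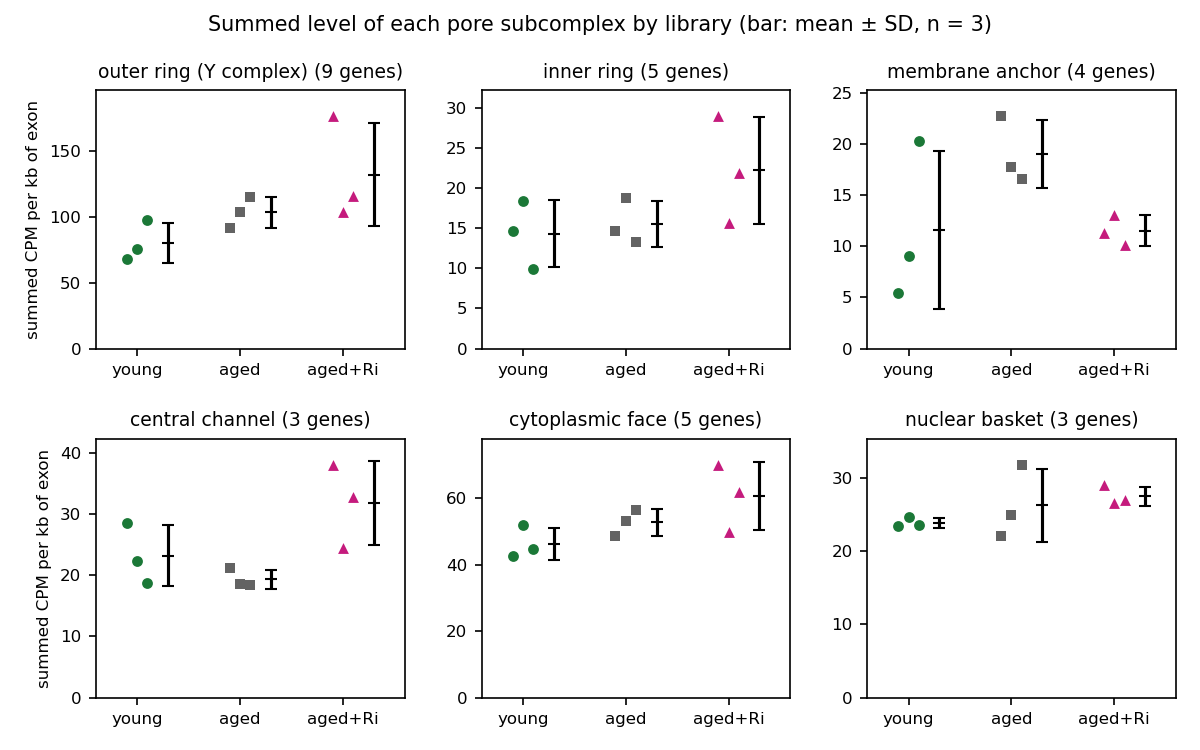
Summed CPM per kb of exon for the genes of each pore subcomplex, with 1 point per library and the mean ± SD of 3 libraries as a bar. The summed membrane anchors (16.6 to 22.7 in aged, 10.1 to 13.1 in aged+Ri) separate these 2 groups, a difference carried by Aaas and Nup210. The summed central channel (18.4 to 21.1 in aged, 24.5 to 38.0 in aged+Ri) separates them in the opposite direction. In aged+Ri 2 only Nup62 of the channel genes stood above the aged libraries.

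Replicates of the young group spread most. In young, 8 of 29 genes differed by more than 4-fold between the highest and the lowest library, against 1 in aged and 2 in aged+Ri. Among the 9750 genes with a mean of at least 5 CPM, 38.0% spread that far in young, 13.7% in aged and 12.8% in aged+Ri. Nup43, a WD-repeat subunit of the outer ring, had 0.243, 26.0 and 11.1 CPM in young 1, 2 and 3, from 12, 1019 and 390 counts. In the other groups it lay between 18.2 and 47.2 CPM, so young 1 alone stood near its floor. Nup133, an outer ring scaffold subunit, had 50.3, 61.4 and 2.08 CPM in young and between 13.4 and 40.4 elsewhere, with young 3 the single low library. Its exons overlap antisense genes, whose reads cannot be told apart where strand was not used in counting. Ndc1, a membrane nucleoporin needed to insert pores, had 1.17, 12.9 and 4.68 CPM in young, and Pom121 had 0.586, 3.78 and 5.25. Both were low genes, and in each young 1 was the lowest young library. Pom121 also varied in aged, at 2.19, 0.253 and 3.72 CPM, and shares 665 exon bases with Nsun5. The most even of the 29 genes were Nup107, Nup50 and Nup54 in young, with ratios of highest to lowest library of 1.08, 1.08 and 1.09, and Nup98, Nup54 and Nup155 in aged, with 1.04, 1.15 and 1.17. In aged+Ri they were Nup205, Nup210 and Nup62, none with a ratio above 1.19.

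Aged against young asks how the messenger RNAs of the pore differ with age. In edgeR's quasi-likelihood test 0 of 29 nucleoporin genes passed an adjusted p of 0.05, against 0.0331% of all genes tested. At an unadjusted p under 0.05 there were 3 (all genes: 16.2%), 1 higher in aged cells (Nup214, against 6.09% of all genes) and 2 lower (Nup160 and Nup155, against 10.1%). The libraries of the groups did not overlap for 6 genes (all genes: 24.7%), 3 higher in aged (Nup214, Aaas and Nup107, against 8.58% of all genes) and 3 lower (Nup160, Nup98 and Nup153, against 16.1%). These counts lay near or below the shares of all genes. Of genes with a mean of at least 5 CPM, a level that 28 members reached, 17.4% did not overlap, 10.4% higher and 7.08% lower. The 20.7% of members without overlap lay somewhat above that share. Log2 changes were positive for 18 genes (all genes: 45.3%) and negative for 11, with a median of 0.14, beside -0.13 over all genes tested and 0.023 over genes with a mean of at least 5 CPM. Without young 2 the median was 0.36, without young 3 it was 0.031, without young 1 it was 0.056, and without aged 1 or aged 2 it was 0.075 or 0.089. Between single libraries of the same sequencing batch it was -0.31 in batch 2 and 0.15 in batch 3, with -0.10 and -0.13 over all genes. Young 1 was sequenced in batches 1 and 3 and entered no within-batch value.

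The promoters of the 3 genes with an unadjusted p under 0.05 are printed because these genes lead the age comparison in both directions. Each runs 5′ to 3′ on the plus strand and ends before the first base of the gene in GENCODE, and comes from RefSeq's table for GRCm38.p6. Capitals mark matches, on either strand, to CCGGAA (the core of ETS factor sites), CCAAT (the site of the factor NF-Y), TATAAA (the TATA box), GGGCGG (the core of SP1 sites), TGCGCA (the core of NRF1 sites), TGANTCA (the AP-1 site) and the CArG box of SRF. The windows are chr2:31974200-31974435 for Nup214, chr2:90676965-90677214 for Nup160 and chr15:8109063-8109272 for Nup155.
Nup214: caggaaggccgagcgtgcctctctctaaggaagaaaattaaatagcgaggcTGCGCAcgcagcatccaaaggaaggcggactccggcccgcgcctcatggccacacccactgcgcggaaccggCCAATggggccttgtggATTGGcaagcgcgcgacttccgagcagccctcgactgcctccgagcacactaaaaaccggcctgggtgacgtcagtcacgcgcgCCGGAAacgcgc
Nup160: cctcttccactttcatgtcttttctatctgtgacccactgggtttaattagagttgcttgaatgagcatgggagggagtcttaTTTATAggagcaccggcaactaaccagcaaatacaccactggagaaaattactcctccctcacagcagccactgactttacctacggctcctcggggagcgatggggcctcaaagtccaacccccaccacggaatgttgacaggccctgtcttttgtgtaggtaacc
Nup155: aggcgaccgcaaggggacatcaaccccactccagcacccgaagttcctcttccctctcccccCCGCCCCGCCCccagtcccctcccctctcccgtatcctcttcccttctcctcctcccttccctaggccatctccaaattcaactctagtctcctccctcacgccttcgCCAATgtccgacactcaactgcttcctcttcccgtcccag
The Nup214 window is 64.0% G and C with 26 CpG and holds 2 CCAAT matches, 1 CCGGAA match and 1 TGCGCA match. The Nup160 window is 50.0% G and C with 5 CpG and holds 1 TATAAA match on the reverse strand. The Nup155 window is 62.4% G and C with 10 CpG and holds 2 overlapping GGGCGG matches and 1 CCAAT match. Of the 31 genes, 27 had an entry in the table, and the 250 bases before their start were compared with those of 27025 genes. The printed windows of Nup214 and Nup155 hold only the first 236 and 210 of these 250 bases, and a CCGGAA match of Nup155 that is counted here lies in the bases not printed. GGGCGG stood in 16 of 27 (59.3%) against 32.9% of all, CCGGAA in 7 (25.9%) against 12.2%, CCAAT in 10 (37.0%) against 34.5%, and TGCGCA in 4 (14.8%) against 6.66%. TATAAA stood in 2 (7.41%), Nup160 and Ranbp2, against 13.0%, and TGANTCA in 0 against 6.87%. A CArG box stood in the window of Ranbp2 alone (3.70%, against 1.40% of all). The median window held 62.8% G and C in pore genes and 52.0% in all genes, and these matches describe letters, not bound sites.

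In the outer ring, Nup160 is a subunit of the Y complex and lies on chromosome 2 (90677215 to 90736328, plus strand, GRCm38). It had 58.1, 42.2 and 21.7 CPM in young 1, 2 and 3. In aged 1, 2 and 3 it had 18.3, 15.3 and 11.7 CPM, so every aged library stood below every young one. Aged differed from young by -1.43 ± 0.54 on the log2 scale (SE, n = 3 and 3, edgeR adjusted p = 0.241), and within batches 2 and 3 the difference was -1.43 and -0.86. Nup107, the subunit that names the complex, had 12.2, 12.2 and 11.3 CPM in young against 28.2, 14.9 and 26.0 in aged. Aged was higher without overlap, though aged 2 lay close to the young libraries (log2 0.95 ± 0.59, edgeR adjusted p = 0.433). Nup37, a small outer ring subunit, had 40.2, 17.1 and 45.8 CPM in young against 29.4, 89.7 and 66.8 in aged. These groups overlapped, and the log2 change of 0.85 ± 0.51 (edgeR adjusted p = 0.419) was 2.35 in batch 2 and 0.54 in batch 3, and in the fit 0.52 without aged 2 and 1.28 without aged 1. Nup160 and Nup107, subunits of the same complex, thus had opposite signs.

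In the inner ring, Nup155, a scaffold subunit (chromosome 15, 8109273 to 8161247, plus strand), had 12.0, 60.9 and 35.4 CPM in young against 12.2, 13.4 and 14.2 in aged. Young 1 lay just below the aged libraries, and the other young libraries lay above them. The log2 change was -1.44 ± 0.65 (edgeR adjusted p = 0.297), and -0.74 without young 2. Set against young 1 alone, the young library without Y-linked transcripts, the sign turned, at 0.20. Among the membrane anchors, Aaas, also called aladin, had 10.1, 11.6 and 29.5 CPM in young against 40.3, 30.3 and 32.9 in aged. Aged was higher in every library, by a narrow margin over young 3 (log2 1.02 ± 0.58, edgeR adjusted p = 0.394). Within batch 3 the difference was 0.15 and within batch 2 it was 1.35, and without young 3 the fitted change was 1.68.

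In the central channel, Nup98, a barrier-forming nucleoporin, had 89.2, 43.9 and 49.2 CPM in young against 34.2, 35.3 and 35.7 in aged. The aged libraries sat together below all young ones, and young 1 stood above the rest (log2 -0.79 ± 0.44, edgeR adjusted p = 0.379, and -0.45 without young 1). On the cytoplasmic face, Nup214, a docking site for export complexes, lies on chromosome 2 (31974436 to 32053975, plus strand). It had 11.9, 9.18 and 9.81 CPM in young against 34.5, 21.7 and 46.7 in aged. Its young libraries lay close together, and all 3 aged libraries stood well above them. It differed by 1.73 ± 0.55 on the log2 scale (edgeR adjusted p = 0.205), 1.20 within batch 2 and 2.20 within batch 3. Without aged 3 the log2 change was 1.47. Of its 9659 exon bases 642 are shared with other genes. In the nuclear basket, Nup153, which tethers the basket to the pore, had 41.0, 69.3 and 57.1 CPM in young against 28.9, 38.2 and 34.5 in aged. Every aged library was below every young one (log2 -0.72 ± 0.41, edgeR adjusted p = 0.387), with -0.85 and -0.72 within batches 2 and 3 and -0.44 without young 2. DESeq2, run as an alternative, called 2 members (all genes: 5.35%), Nup214 at a log2 change of 1.65 (DESeq2 adjusted p = 0.00255) and Nup160 at -1.51 (DESeq2 adjusted p = 0.0218), while limma-voom called 0 (all genes: 0.119%).

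**Figure D3:**
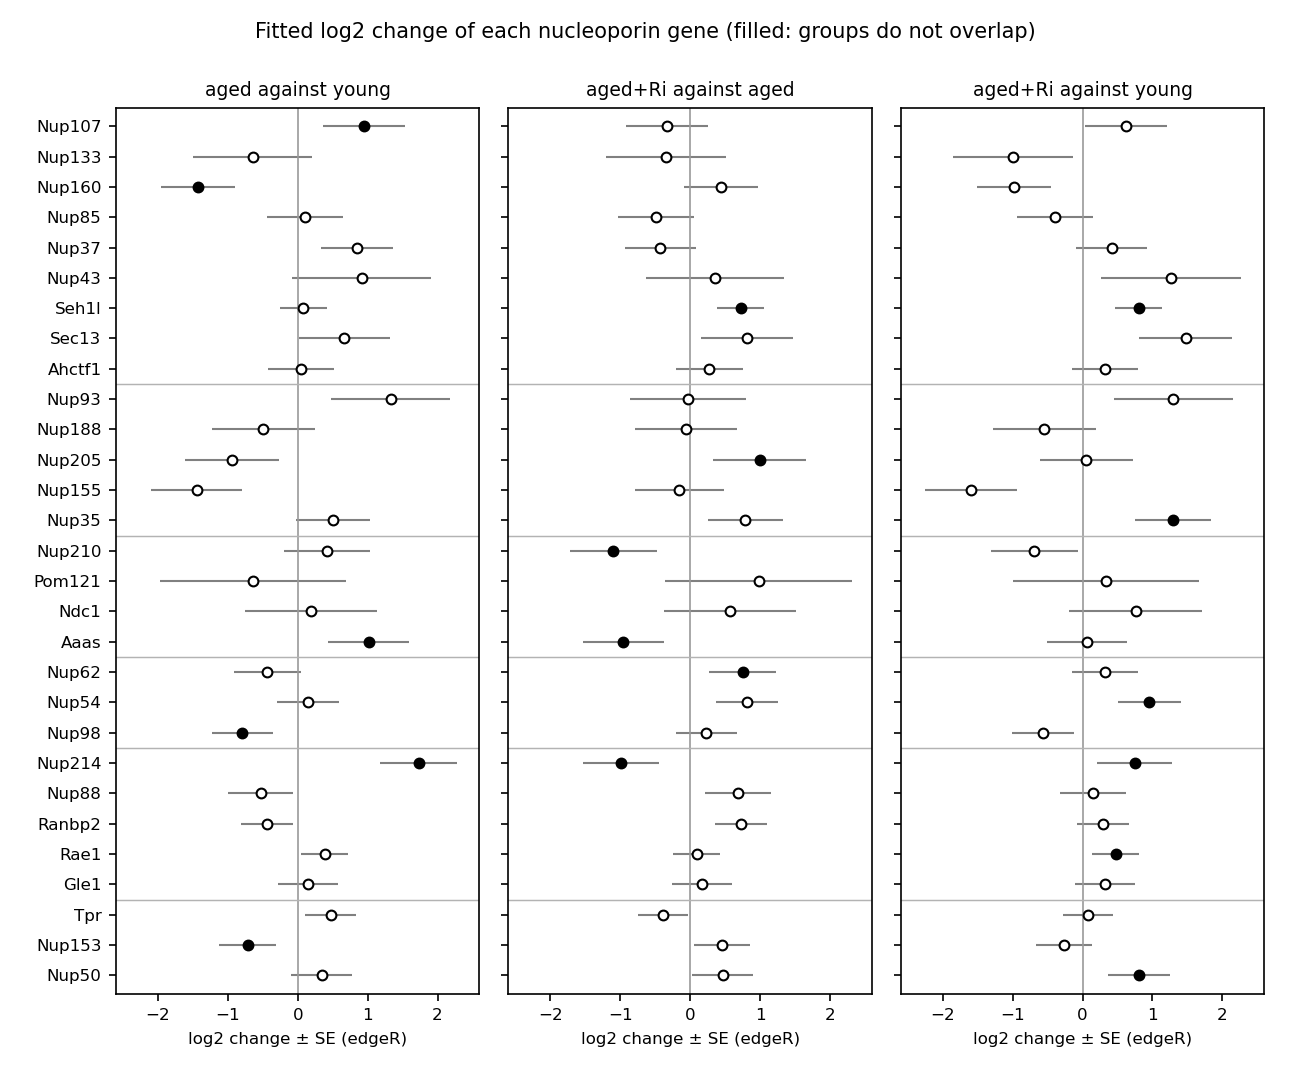
Log2 change ± SE from edgeR of each of the 29 nucleoporin genes in the 3 comparisons, with filled points where the libraries of the groups do not overlap. Each panel has 6 filled points, and in aged+Ri against young all 6 are higher in aged+Ri. In that comparison 12.4% of all genes were higher in aged+Ri without overlap, and 15.8% of genes with a mean of at least 5 CPM.

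Aged+Ri against aged asks what the RhoA inhibitor does to the same messenger RNAs in aged cells. No nucleoporin gene passed edgeR's adjusted p of 0.05 (0 of 29, all genes: 0%), none had an unadjusted p under 0.05 (0 of 29, all genes: 9.14%, 4.24% higher and 4.89% lower), and DESeq2 (all genes: 2.3%) and limma-voom (all genes: 0.364%) called 0. Groups did not overlap for 6 of 29 genes (20.7%, all genes: 16.5%), 3 higher with Rhosin (Seh1l, Nup62 and Nup205, against 7.87% of all genes) and 3 lower (Nup214, Nup210 and Aaas, against 8.66%). Of genes with a mean of at least 5 CPM, 19.6% did not overlap, 9.66% higher and 9.93% lower, and 48.7% had a positive change. Log2 changes were positive for 18 members (all genes: 47.2%) and negative for 11. Their median was 0.28, beside -0.061 over all genes and -0.023 over genes with a mean of at least 5 CPM. That median rested on aged+Ri 1, since without this library it was -0.038, with 14 genes positive and 15 negative. Without aged+Ri 2 it was 0.47, and without aged 3 it was 0.16. Between libraries of batch 1 it was 0.50 and between those of batch 2 it was -0.080. Batch 3 held aged 3 and no aged+Ri library, so it gave no value.

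Seh1l in the outer ring had 101, 77.8 and 86.7 CPM in aged 1, 2 and 3 against 189, 136 and 113 in aged+Ri 1, 2 and 3. All aged+Ri libraries stood above all aged ones, with a log2 change of 0.72 ± 0.34 (SE, n = 3 and 3, edgeR adjusted p = 0.551). Within batches 1 and 2 the difference was 0.91 and 0.67. Nup205, an inner ring scaffold protein, had 14.6, 7.08 and 6.37 CPM in aged against 19.4, 17.1 and 19.5 in aged+Ri. The aged+Ri libraries were close together and above all aged ones (log2 1.00 ± 0.67, edgeR adjusted p = 0.719). For Nup205 the difference was 0.40 within batch 1 and 1.30 within batch 2.

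Both membrane anchors with separate groups were lower with Rhosin. Nup210, an integral membrane nucleoporin that varies between cell types, had 67.6, 51.8 and 32.7 CPM in aged against 21.6, 24.7 and 24.6 in aged+Ri. Treated and untreated aged cells differed by -1.10 ± 0.62 on the log2 scale (edgeR adjusted p = 0.636), and -1.63 and -1.06 within batches 1 and 2. In young cells its libraries gave 15.5, 16.9 and 81.8 CPM, so young 1 and 2 lay below and young 3 above every library of the other groups. Aaas had 12.7, 24.6 and 16.1 CPM in aged+Ri, all under the 30.3 to 40.3 of aged cells (log2 -0.95 ± 0.58, edgeR adjusted p = 0.675).

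All 3 central channel genes had positive log2 changes. Nup62, the core of the channel complex, had 29.0, 17.5 and 18.6 CPM in aged against 32.9, 37.6 and 39.3 in aged+Ri, without overlap (log2 0.75 ± 0.48, edgeR adjusted p = 0.687). Its difference was 0.18 within batch 1 and 1.11 within batch 2. Its partner Nup54 had 27.5, 31.7 and 30.1 CPM in aged against 73.5, 30.5 and 52.3 in aged+Ri. Here aged+Ri 2 lay among the aged libraries and the other 2 above them (log2 0.81 ± 0.45, edgeR adjusted p = 0.626, and 0.47 without aged+Ri 1). On the cytoplasmic face, Nup214 had 16.8, 15.3 and 19.8 CPM in aged+Ri, below each aged library and above each young one. The log2 change from aged was -0.99 ± 0.54 (edgeR adjusted p = 0.622), -1.02 in batch 1 and -0.31 in batch 2. Its 3 groups were thus ordered young, aged+Ri, aged with no overlap, with the aged libraries used in both comparisons. The share of all genes in such an order was not computed. The summed myeloid markers lay at 1053 to 3551 CPM in young, 449 to 10189 (median 606) in aged and 73.4 to 123 in aged+Ri. Whether myeloid cells take part in the order of Nup214 was not tested. Ranbp2, the giant protein of the cytoplasmic filaments and a SUMO ligase, had 82.0, 79.8 and 65.6 CPM in aged against 182, 77.2 and 117 in aged+Ri. Aged+Ri 2 again lay within the aged range (log2 0.73 ± 0.38, edgeR adjusted p = 0.595), and the difference was 1.15 in batch 1, 0.25 in batch 2 and, in the fit, 0.35 without aged+Ri 1.

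**Figure D4:**
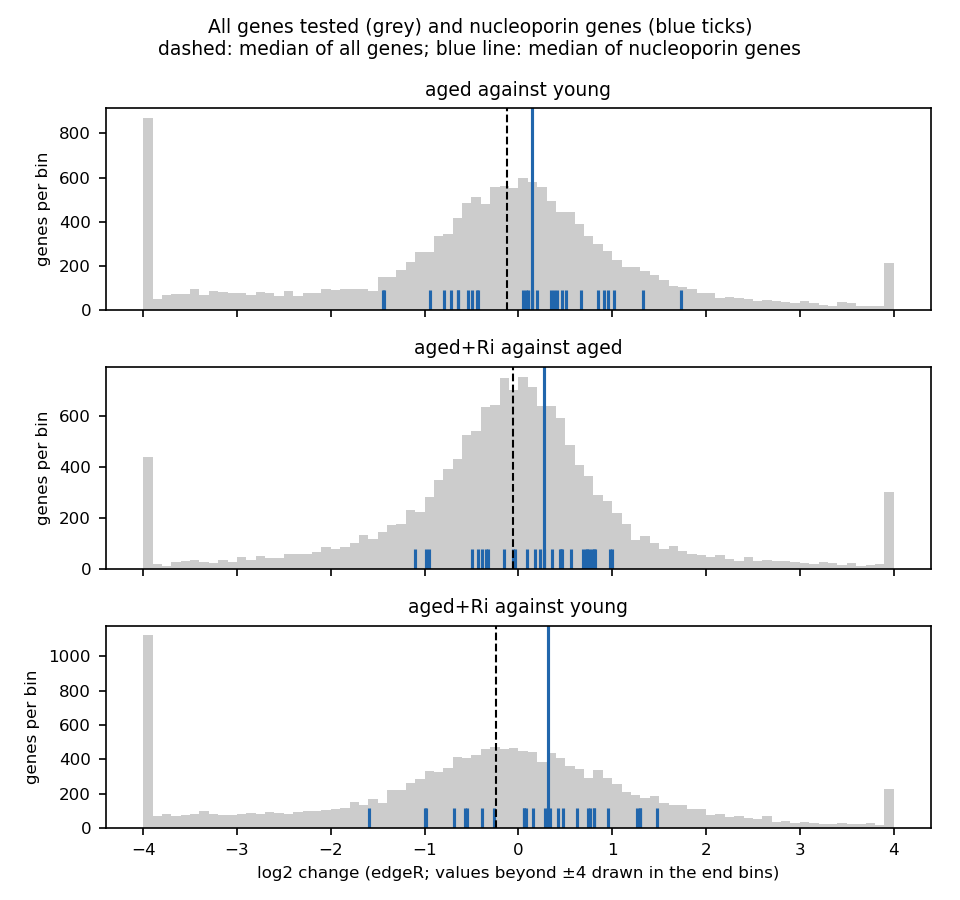
Number of genes per bin of log2 change (edgeR) for all 15127 genes tested, in grey, with the 29 nucleoporin genes as blue ticks, in the 3 comparisons. Medians are drawn as a blue line for nucleoporin genes (0.14, 0.28 and 0.32 from top to bottom) and as a dashed line for all genes (-0.13, -0.061 and -0.24).

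Aged+Ri against young sets treated aged cells beside young ones, with libraries that both earlier comparisons also used. No nucleoporin gene passed in edgeR (0 of 29), against 1.45% of all genes tested. At an unadjusted p under 0.05 there were 4 (all genes: 23.4%), 3 higher in aged+Ri (Nup35, Seh1l and Sec13, against 9.06% of all genes) and 1 lower (Nup155, against 14.4%). Groups did not overlap for 6 of 29 (20.7%, all genes: 32.3%), all higher in aged+Ri (Nup35, Seh1l, Nup54, Nup50, Rae1 and Nup214, against 12.4% of all genes), and for 0 lower (all genes: 19.9%). Log2 changes were positive for 21 genes (all genes: 42.6%) and negative for 8, with a median of 0.32, beside -0.24 over all genes and -0.024 over genes with a mean of at least 5 CPM. Within batch 2 the median was -0.28, and with batch as a covariate it was 0.097. In the fit with batch, young 1 has a batch level of its own and adds nothing to this comparison. The members' median without batch in the fit was 0.19 without young 1, 0.56 without young 2 and 0.55 without young 3.

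Sec13 (chromosome 6, 113728062 to 113740743, minus strand) had 21.0, 19.1 and 130.1 CPM in young against 232, 82.4 and 159 in aged+Ri. Young 3 lay within the aged+Ri range, and young 1 and 2 lay far below it. The log2 change of 1.48 ± 0.66 (edgeR adjusted p = 0.201) became 2.99 without young 3 (edgeR adjusted p = 0.00911), the one member called when any single library was left out. Aged cells had 59.8, 93.0 and 116 CPM. Seh1l had 73.5, 67.2 and 111 CPM in young, against the 113 to 189 of aged+Ri, where young 3 came close to aged+Ri 3. Its log2 change was 0.80 ± 0.34 (edgeR adjusted p = 0.179). Nup160 had 18.6, 25.4 and 17.5 CPM in aged+Ri, beside 21.7 to 58.1 in young, with overlap (log2 -0.99 ± 0.53, edgeR adjusted p = 0.276).

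Nup35, the inner ring protein that bends and binds membrane, had 22.8, 21.8 and 12.9 CPM in young against 59.1, 25.1 and 56.9 in aged+Ri. All aged+Ri libraries were higher, though aged+Ri 2 was close to young (log2 1.29 ± 0.54, edgeR adjusted p = 0.176). Nup155 had 17.5, 8.64 and 9.66 CPM in aged+Ri, and again young 1 alone was as low. The log2 change was -1.60 ± 0.66 (edgeR adjusted p = 0.170), -0.91 without young 2 and 0.045 when young 1 stood alone for the young group. DESeq2 called this gene alone among members (log2 -1.66, DESeq2 adjusted p = 0.0473, all genes: 13.4%), and limma-voom called 0 (all genes: 4.26%). Nup93, the linker of inner ring and channel, had 13.0, 3.67 and 2.99 CPM in young against 27.5, 15.9 and 4.91 in aged+Ri. It was low and overlapped between groups (log2 1.30 ± 0.85, edgeR adjusted p = 0.374), and the change was 0.71 without aged+Ri 1 and 2.19 without young 1.

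Nup54 had 28.4, 26.2 and 26.1 CPM in young, tightly grouped below all 3 aged+Ri libraries (log2 0.95 ± 0.45, edgeR adjusted p = 0.219). Nup50, a basket protein that helps release import cargo, had 27.1, 29.4 and 28.7 CPM in young against 58.9, 38.9 and 51.2 in aged+Ri. The groups were separate (log2 0.81 ± 0.44, edgeR adjusted p = 0.286), while aged cells ranged from 24.5 to 52.7 CPM over both. Rae1 had 53.1, 56.3 and 72.5 CPM in young against 85.9, 74.3 and 92.7 in aged+Ri, with aged+Ri 2 just above young 3.

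The members not yet described had overlapping groups in each comparison. Nup85, an outer ring subunit, ranged from 16.0 to 60.5 CPM in young, 23.8 to 60.0 in aged and 21.6 to 34.7 in aged+Ri. Ahctf1, also called ELYS, which starts pore assembly on chromatin, ranged from 19.2 to 48.8 CPM, 33.5 to 43.5 and 33.2 to 67.4 in the same order. Nup188, an inner ring scaffold protein, ranged from 7.87 to 17.0 CPM, 6.11 to 13.2 and 6.04 to 12.3. None of these had a group clear of the others. Nup88, the partner of Nup214, ranged from 39.7 to 58.5 CPM in young, 20.7 to 44.4 in aged and 29.6 to 73.7 in aged+Ri. Gle1, which activates the export helicase Ddx19, ranged from 23.3 to 62.6 CPM, 44.0 to 53.4 and 45.4 to 61.3. Tpr, the main coiled-coil of the basket, ranged from 93.1 to 127 CPM, 91.9 to 217 and 86.9 to 129. For Tpr, aged 3 was the single high library.

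Nup42, a cytoplasmic nucleoporin that binds Gle1, is listed as Nupl2 and had 1.38, 0.102 and 3.74 CPM in young, 10.8, 13.0 and 1.27 in aged, and 8.25, 8.95 and 11.1 in aged+Ri. Aged+Ri stood above young without overlap (log2 2.44 ± 1.24, edgeR adjusted p = 0.255), while aged 3 lay among the young libraries. The log2 change from young to aged was 2.26 ± 1.23 (edgeR adjusted p = 0.370), 4.49 within batch 2 and -1.26 within batch 3. Nup58, a channel partner of Nup62 and Nup54, is listed as Nupl1 and had at most 6 counts in any library. A predicted gene, Gm49336, shares 1756 exon bases with it and had between 387 and 3198 counts, and from which gene those reads came cannot be told apart.

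The transport factors that use the pore were taken as a list of 42 genes, all tested. In edgeR 0 passed in any of the 3 comparisons, and at an unadjusted p under 0.05 there were 4 in aged against young (all genes: 16.2%), 1 in aged+Ri against aged (9.14%) and 6 in aged+Ri against young (23.4%). DESeq2 called 1, 0 and 3 in that order (all genes: 5.35%, 2.3% and 13.4%) and limma-voom 0. The median log2 change was -0.26, 0.18 and 0.058 in the same order, beside -0.13, -0.061 and -0.24 over all genes. For 5, 7 and 7 genes the groups did not overlap (11.9%, 16.7% and 16.7%, all genes: 24.7%, 16.5% and 32.3%), so these shares lay near or below those of all genes. Exportins, which carry cargo out of the nucleus, had negative log2 changes in 6 of 7 genes in aged against young, with a median of -0.71, and among the importin beta family, the import receptors, 8 of 11 were negative. Only 45.3% of all genes had a positive change in that comparison. Ipo11 was the exception with the smallest p, at 213 ± 73.8 CPM in aged against 108 ± 18.2 in young (SD, n = 3 each, log2 0.98 ± 0.33 SE, edgeR adjusted p = 0.213). Ipo5 had 37.4 ± 11.7 CPM in aged against 79.3 ± 14.9 in young (log2 -1.08 ± 0.40, edgeR adjusted p = 0.237). Both had groups without overlap. The importin alpha adaptors, which bind import signals, had positive log2 changes with Rhosin in 4 of 5 genes, 3 of them higher without overlap between aged+Ri and aged (all genes: 47.2% positive, 7.87% higher without overlap). Of these, Kpna4 had 148 ± 11.3 CPM in aged+Ri against 90.6 ± 11.5 in aged (log2 0.71 ± 0.35, edgeR adjusted p = 0.581). Cse1l, the exportin that returns importin alpha to the cytoplasm, had 87.5 ± 19.7 CPM in aged+Ri against 41.1 ± 8.57 in aged, also without overlap (log2 1.09 ± 0.37, edgeR adjusted p = 0.419). Alyref, an adaptor of mRNA export, had 148 ± 37.4 CPM in aged+Ri against 45.1 ± 27.7 in young (log2 1.72 ± 0.57, edgeR adjusted p = 0.111). With batch as a covariate, a fit to whose young group young 1 adds nothing, its log2 change was 3.08 and it was called (edgeR adjusted p = 0.0167). Mcm3ap, also called GANP, which brings messenger RNA to the basket, had 16.9 ± 8.53 CPM against 57.9 ± 29.5 in the same groups (log2 -1.77 ± 0.65, edgeR adjusted p = 0.135).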

How the data were processed

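The authors deposited 1 table of estimated counts for 21939 genes in 9 libraries. Per the submitters' processing notes it was made with featureCounts, STAR 2.7.0, cutadapt 1.18, R 4.2.0 and SAMtools 1.14 on GRCm38, and strand use is not given in the sources used here. Estimated counts were rounded to whole numbers. Genes were filtered with filterByExpr (15127 kept), scaled by TMM, and fitted with 1 quasi-likelihood model of group means over all 9 libraries, with robust estimation (edgeR 4.0.16, limma 3.58.1, R 4.3.3), leaving 6 residual degrees of freedom. Tests were two-sided, with Benjamini-Hochberg adjustment over all genes tested and a threshold of 0.05. Within-batch values are differences of log2(CPM + 0.5) between single libraries or their means. For each comparison the 8 members and up to 4 transport genes with the smallest p were named. Members and lists were chosen with earlier results of these data known. Gene positions and exon lengths come from GENCODE on GRCm38, in which 10 of the 29 members share exon bases with another gene. Alternatives included DESeq2 1.42.0, limma-voom, other filters, each library left out in turn, a replicate block and sequencing batch as a model term. The steps were tested on simulated data. No 2 libraries were alike to within counting noise (chi-square per degree of freedom at least 213).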

Additional observations from a re-analysis of the deposited data

How the results depend on the processing

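The count of nucleoporin genes called stayed at 0 in each comparison under DESeq2 size factors, limma-voom, no filter, a stricter filter, only the groups compared, the replicate block, batch as a covariate and edgeR's newer quasi-likelihood method. DESeq2 called 2, 0 and 1 in aged against young, aged+Ri against aged and aged+Ri against young, and 1, 0 and 3 transport genes (Ipo5, then Rcc1, Mcm3ap and Xpo7). With young 1 standing alone for young cells (chosen after the data were seen, as were the newer method and the addition of Nupl2 and Nupl1), 1 nucleoporin gene (Nup43) was called in aged against young and 2 (Sec13 and Nup43) in aged+Ri against young, with 2 and 3 transport genes. Nup155 then turned in sign, to 0.20 and 0.045. The lone young library is assumed there to vary like the other groups. Batch as a covariate called 1 transport gene, Alyref, in aged+Ri against young and took the members' median there to 0.097. Young 1, with a batch level of its own, adds nothing to that comparison. Over single libraries left out, nucleoporin genes called were 0 in aged against young and in aged+Ri against aged and 0 to 1 in aged+Ri against young, transport genes called were 0, and the members' median ranged from 0.031 to 0.36, -0.038 to 0.47 and 0.19 to 0.56. Of 456 values of the 24 named member changes under alternatives, 454 kept their direction. These changes were picked by smallest p in these data and the alternatives reuse the same libraries, so this count is no independent support.

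Over the whole table edgeR called 5, 0 and 219 genes in the 3 comparisons. DESeq2 called 744, 320 and 1862, limma-voom 18, 55 and 644, young 1 alone for young cells 358, 40 and 735, the newer quasi-likelihood method 21, 4 and 425, and only the groups compared 1, 2 and 57. Without a filter on low counts there were 20 in aged against young and 11 in aged+Ri against aged, where batch as a covariate gave 16. Leaving out 1 library gave 2 to 80, 0 to 6 and 18 to 532, with the highest counts against young both without young 3. The replicate block gave 6, 2 and 226. Same-numbered libraries of different groups had deviations that correlated between -0.072 and 0.12, not all above 0.1, so the numbers were not taken as pairs, although several same-numbered libraries shared a sequencing batch (aged 1 with aged+Ri 1, all 3 numbered 2, and young 3 with aged 3). The block left the members' count at 0 with medians of 0.23, 0.24 and 0.35. In aged against young the members' median was 0.063 with DESeq2 size factors, 0.061 with the stricter filter and 0.29 with young 1 alone, and in aged+Ri against aged it was 0.16 with limma-voom and 0.17 with batch as a covariate.

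With 3 libraries a group and a wide young group, changes of the size fitted here for single members mostly lay within 3 standard errors of 0, so a p above the threshold does not show equal levels. Young libraries differ from the rest in genes detected, 2 of the 3 also in Y-linked transcripts, and only young 2 and young 3 were each sequenced in 1 batch with libraries of another group.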
